A study of Mus musculus with 6 samples.

Results

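The subject is 10 genes by which epithelial and mesenchymal cells are told apart, out of 22623 genes counted in each of 6 libraries of single nuclei from mouse tumors. They were chosen by symbol and all 10 were present in every gene list, 4 of them epithelial (Cdh1, Epcam, Krt8, Krt18) and 6 mesenchymal (Cdh2, Vim, Zeb1, Zeb2, Snai2, Twist1). The tumors grew for 24 days under the skin of the flank from TC1, an epithelial lung tumor line of the mouse, in MCT2loxP/loxP; Cre+ males on a C57BL/6 background aged 8 weeks at treatment. MCT2 is the monocarboxylate transporter encoded by Slc16a7. Hosts received tamoxifen on 5 days (libraries labelled KO, n = 3) or vehicle (libraries labelled CO, n = 3), so every host carried the floxed allele and the Cre transgene, and gene deletion and tamoxifen cannot be told apart. The implanted TC1 cells are a separate line, and by the study's methods the deletion was meant for the whole host rather than 1 cell type.

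Epithelial cells hold together through E-cadherin (Cdh1) and Epcam at their contacts and through keratin filaments, of which Krt8 and Krt18 form the pair of simple epithelia. In an epithelial-mesenchymal transition these genes are shut off while N-cadherin (Cdh2) and the intermediate filament vimentin (Vim) are switched on. The transcription factors Zeb1, Zeb2, Snai2 (also called Slug) and Twist1 drive that switch. Zeb and Snail family proteins bind E-box motifs in epithelial promoters and repress them. Several of these genes also have roles outside tumors: vimentin is abundant in fibroblasts and leukocytes, and Zeb2 maintains macrophage identity.

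The 6 libraries held 18865 barcodes and 13252572 to 22057084 UMIs (unique molecular identifiers, 1 per captured RNA molecule) each, and 17534 nuclei were kept (7666 CO and 9868 KO). Median depth ranged from 1094 UMIs per nucleus in KO 3 to 4865 in KO 2, and between 19 and 25 barcode sequences were shared by any 2 libraries. Clusters were built without the 10 genes and without the related genes described here, and were named from other markers. This gave 9073 TC1 tumor-like nuclei in 7 clusters, 6155 macrophage-like nuclei and 117 host fibroblast-like nuclei, of which CO 3, KO 2 and KO 3 held 25, 34 and 35 and the other libraries fewer than 10 each. The tumor label rested on Hmga2, Mecom and Slit2, which averaged 5103 ± 1202 CPM, 5445 ± 1785 CPM and 5009 ± 1968 CPM (mean ± SD over 6 libraries, where CPM is the UMIs of a gene per 1000000 UMIs of the class) in tumor-like nuclei against 529 ± 423 CPM, 489.8 ± 408 CPM and 492 ± 439 CPM in macrophage-like nuclei. Igf2bp3, a further marker of the class, went against the label, with 28.0 ± 8.10 CPM in tumor-like and 34.5 ± 18.8 CPM in macrophage-like nuclei. No genetic mark separated implanted cells from host mesenchyme, and Pdgfra, a receptor gene of mesenchymal cells, stood at 750.3 CPM pooled in tumor-like and 683 CPM in fibroblast-like nuclei. As means over 6 libraries the Pdgfra levels were 779 ± 242 CPM and 932 ± 528 CPM, so their order turned with the measure. The labels give the tissue as lung, and of the 5 lung epithelial markers Sftpc, Scgb1a1 and Nkx2-1 had 0 UMIs in tumor-like nuclei, while Sftpb had 7 and Foxj1 21. Slc16a7 itself stood at 8.28, 11.6 and 21.3 CPM in CO 1 to CO 3 and 15.6, 7.11 and 31.4 CPM in KO 1 to KO 3 over all nuclei, and at 93.5, 93.1 and 163 CPM in CO 1 to CO 3 and 118, 142 and 152 CPM in KO 1 to KO 3 in macrophage-like nuclei. KO 2 was the lowest library over all nuclei, but the groups overlapped in both sums, and in macrophage-like nuclei the lowest library was CO 2, so its level did not separate the libraries labelled KO from those labelled CO. The labels do not say whether each library is a separate animal, so p-values measure the spread between libraries only.

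The promoters of 2 epithelial genes are shown because the Zeb and Snail factors described below recognise the E-box CACCTG, read on either strand as CACCTG or CAGGTG. They come from RefSeq on build GRCm38.p6, 5′ to 3′, and capitals mark the motif. The whole window of 250 bases before the RefSeq start is printed for Epcam. For Krt18 the window stops where the GENCODE gene begins.
Epcam, chr17:87635729-87635978, plus strand: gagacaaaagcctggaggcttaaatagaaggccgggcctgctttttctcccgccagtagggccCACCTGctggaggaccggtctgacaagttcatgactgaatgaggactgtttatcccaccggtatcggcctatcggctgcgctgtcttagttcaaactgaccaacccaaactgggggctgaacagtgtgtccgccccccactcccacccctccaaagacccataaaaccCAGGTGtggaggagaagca
Krt18, chr15:102027966-102028179, plus strand: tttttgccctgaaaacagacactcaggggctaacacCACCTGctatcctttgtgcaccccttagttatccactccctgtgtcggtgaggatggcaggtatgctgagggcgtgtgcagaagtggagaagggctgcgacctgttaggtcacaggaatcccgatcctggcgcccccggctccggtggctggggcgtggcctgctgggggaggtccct
Counted from the first base of the motif to the RefSeq start, the Epcam matches began 187 and 19 bases upstream and the Krt18 match 214. Of the 10 genes, 6 had a promoter in the table. Vim, Zeb2 and Twist1 held no match in the same 250 bases, and neither did the 3 further starts of Zeb2. Among all 32851 promoters of that length, 17.2% held at least 1 match. Cdh1, Cdh2, Zeb1 and Snai2 were not in the table. A match describes letters in a window, not a bound site.

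Transcripts of the 4 epithelial genes were nearly absent from tumor-like nuclei. Of 61264854 UMIs in these nuclei, 32 came from Cdh1, 14 from Krt8, 5 from Epcam and 2 from Krt18. Every Krt8 and Krt18 UMI of the kept nuclei lay in a tumor-like nucleus, and both keratins were at 0 in macrophage-like and fibroblast-like nuclei. In those classes 0 counts allow up to 0.389 and 5.75 CPM (3 counts of each class total, counting error only). The pooled tumor-like levels of Krt8 and Krt18 were 0.229 and 0.0326 CPM, below both limits, so the keratins do not rank the classes. Krt8 stood at 0.665, 0.287 and 0 CPM in CO 1 to CO 3 and 0.157, 0 and 0.140 CPM in KO 1 to KO 3 in tumor-like nuclei. The library CO 1 held 8 of its 14 UMIs, and CO 3 and KO 2 held none. Epcam, whose product is an adhesion molecule of epithelial surfaces, had 7 UMIs in macrophage-like nuclei and 1 in fibroblast-like nuclei, too few to rank the classes.

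Most E-cadherin transcripts lay in leukocyte nuclei, where macrophage-like nuclei held 141 of 294 UMIs and T/NK-like nuclei 86. In tumor-like nuclei Cdh1 stood at 0.499, 0.382 and 0.385 CPM in CO 1 to CO 3 and 0.471, 0.585 and 0.839 CPM in KO 1 to KO 3. The same libraries gave 10.8, 18.9 and 30.7 CPM in CO 1 to CO 3 and 13.6, 40.8 and 15.2 CPM in KO 1 to KO 3 in macrophage-like nuclei, so the tumor level was lower in 6 of 6 libraries and no tumor value reached the lowest macrophage value. The log2 ratio of tumor to macrophage level was -3.75 ± 0.74 (mean ± SD over 6 libraries, 1 CPM added to both levels). In T/NK-like nuclei the pooled Cdh1 level was 36.0 CPM (95% exact Poisson interval 28.8 to 44.5, counting error only). Over the 6 libraries it ranged from 8.48 to 157.9 CPM, with a median of 19.8 CPM. Tumor-like nuclei supplied 10.9% of all Cdh1 UMIs although they held 51.7% of nuclei and 61264854 of the 79967683 UMIs of all genes. Macrophage marker transcripts in tumor-like nuclei amounted to 3.55% ± 1.55 of their macrophage level, and Cdh1 to 3.05% ± 1.77. In 4 of 6 libraries the Cdh1 share was at or below the marker share, so Cdh1 there was not read as expression.

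**Figure D1:**
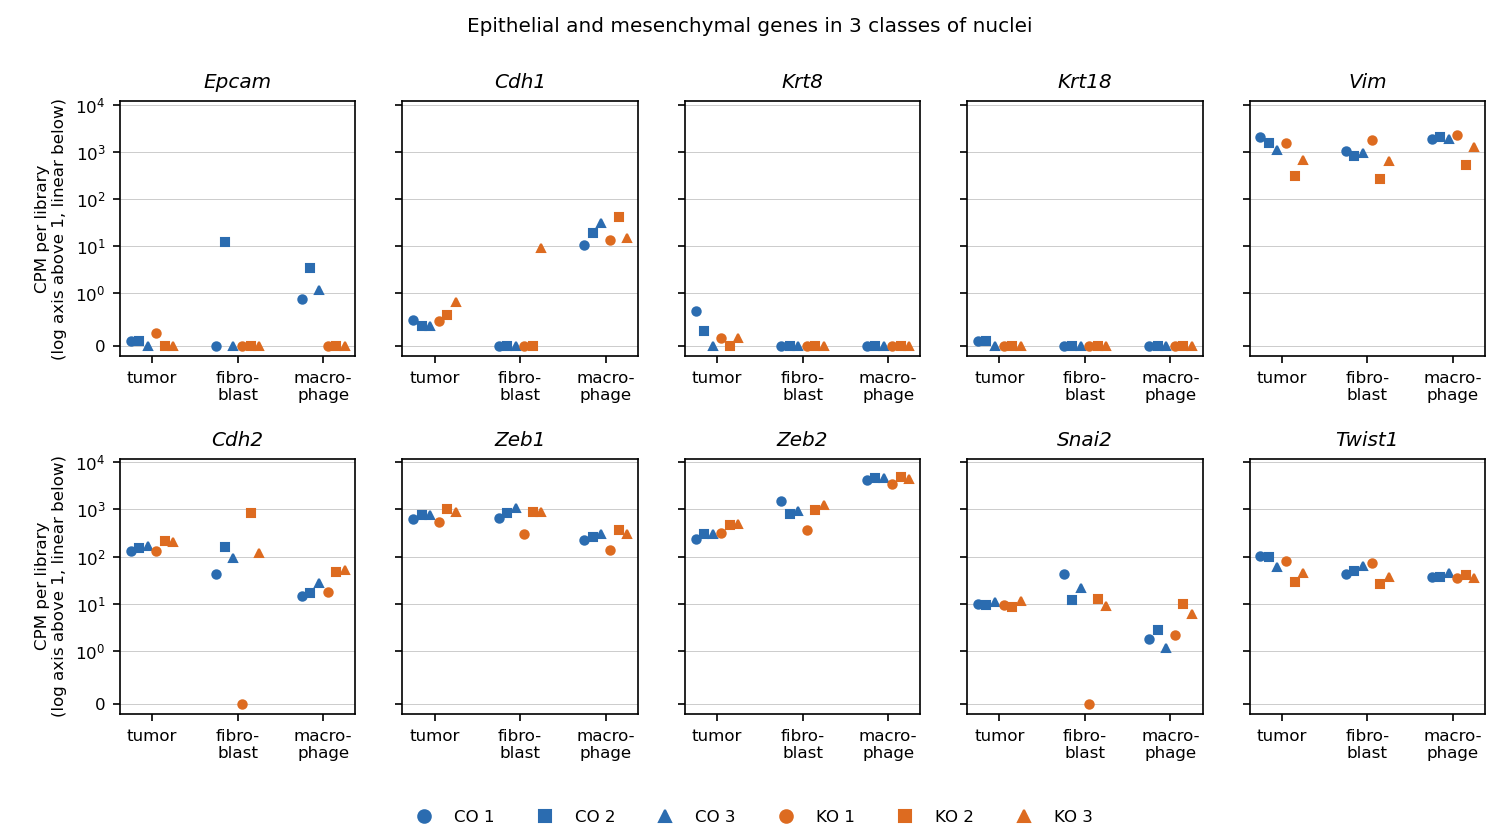
CPM of the 10 genes in each library (points, CO blue, KO orange) for tumor-like, host fibroblast-like and macrophage-like nuclei, on an axis that is logarithmic above 1 CPM and linear below. The keratins lie at or near 0 throughout, Cdh1 is highest in macrophage-like nuclei, and Zeb1 and Cdh2 are higher in tumor-like than in macrophage-like nuclei of every library.

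The mesenchymal genes were all detected in tumor-like nuclei, but they did not share a single pattern. Vimentin, the main intermediate filament of mesenchymal cells and leukocytes, stood at 2078, 1520.2 and 1068 CPM in CO 1 to CO 3 and 1509.8, 303 and 655 CPM in KO 1 to KO 3. In macrophage-like nuclei it stood at 1906, 2031 and 1880.2 CPM in CO 1 to CO 3 and 2266, 529 and 1254 CPM in KO 1 to KO 3. The tumor level was below the macrophage level in 5 of 6 libraries, with CO 1 the exception, and the log2 ratio was -0.57 ± 0.39. KO 2 was the lowest library in both classes. The share of ribosomal protein transcripts among tumor-like UMIs was 1.58, 1.31 and 0.945% in CO 1 to CO 3 and 1.49, 0.417 and 0.712% in KO 1 to KO 3, with the same library lowest, and its part in the Vim level was not tested.

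N-cadherin and Zeb1 were the members that stood higher in tumor-like than in macrophage-like nuclei of all 6 libraries. That makes 2 of the 7 members with at least 50 UMIs over both classes, and 2 more, Cdh1 and Zeb2, were lower in all 6. Among all 13317 genes with that many UMIs, 33.3% were higher and 26.4% lower in tumor-like nuclei of every library, so these counts do not set the 10 genes apart. Cdh2, the cadherin of mesenchymal and neural contacts, stood at 133, 152 and 165 CPM in CO 1 to CO 3 and 129, 219 and 201 CPM in KO 1 to KO 3 in tumor-like nuclei and at 14.4, 16.8 and 28.3 CPM in CO 1 to CO 3 and 17.9, 46.7 and 51.3 CPM in KO 1 to KO 3 in macrophage-like nuclei. The ranges did not overlap, and the log2 ratio was 2.61 ± 0.48. Zeb1, the zinc finger repressor, stood at 631, 749 and 773 CPM in CO 1 to CO 3 and 548, 1013 and 868 CPM in KO 1 to KO 3 in tumor-like nuclei and at 136 to 368 CPM in macrophage-like nuclei. Again no tumor value fell to the highest macrophage value, and the log2 ratio was 1.55 ± 0.23.

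Its paralog Zeb2 went the other way. Tumor-like nuclei held 241, 306 and 308 CPM in CO 1 to CO 3 and 313, 460.3 and 498 CPM in KO 1 to KO 3, and macrophage-like nuclei 4232, 4657 and 4716 CPM in CO 1 to CO 3 and 3381, 4829.7 and 4498 CPM in KO 1 to KO 3. The log2 ratio was -3.66 ± 0.38, lower in 6 of 6 libraries, and tumor-like nuclei supplied 34.3% of all Zeb2 UMIs against 82.3% of all Zeb1 UMIs. These nuclei held 61264854 of all 79967683 UMIs, so a high share alone does not set a gene apart. Zeb2 in tumor-like nuclei amounted to 8.11% ± 2.14 of its macrophage level, above the 3.55% ± 1.55 of the macrophage markers as a set in 6 of 6 libraries. Single markers varied widely. Mrc1 averaged 3.61 CPM in tumor-like against 413 CPM in macrophage-like nuclei (means over 6 libraries). C1qa averaged 38.0 against 481 CPM and Cd68 8.16 against 49.7 CPM, beside 354 against 4385 CPM for Zeb2. The part of RNA from macrophages in the Zeb2 level of tumor-like nuclei was not tested. Conversely, tumor markers in macrophage-like nuclei reached 8.93% ± 4.82 of their tumor level. Cdh2 there reached 16.6% ± 5.88 and Zeb1 34.5% ± 4.88, both above the markers in 6 of 6 libraries. Outside these classes the pooled Zeb1 level was 1214 CPM in 189 endothelial-like nuclei and the pooled Zeb2 level 3257 CPM in 64 adipocyte-like nuclei.

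The basic helix-loop-helix factor Twist1 stood at 101, 96.0 and 61.7 CPM in CO 1 to CO 3 and 82.2, 28.5 and 45.3 CPM in KO 1 to KO 3 in tumor-like nuclei. In macrophage-like nuclei it ranged from 34.7 to 46.0 CPM. Twist1 was higher in tumor-like nuclei in 5 of 6 libraries, the exception being KO 2, and the ranges of the classes overlapped. Snai2 was the weakest of the 4 factors in depth, with 596 UMIs in tumor-like nuclei. Its level there was even, at 9.81, 9.27 and 11.2 CPM in CO 1 to CO 3 and 9.65, 8.63 and 11.5 CPM in KO 1 to KO 3, while the macrophage-like level ranged from 1.18 to 9.73 CPM on 1 to 12 UMIs per library. Snai2 was higher in tumor-like nuclei in 5 of 6 libraries, again with KO 2 as the exception.

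**Figure D2:**
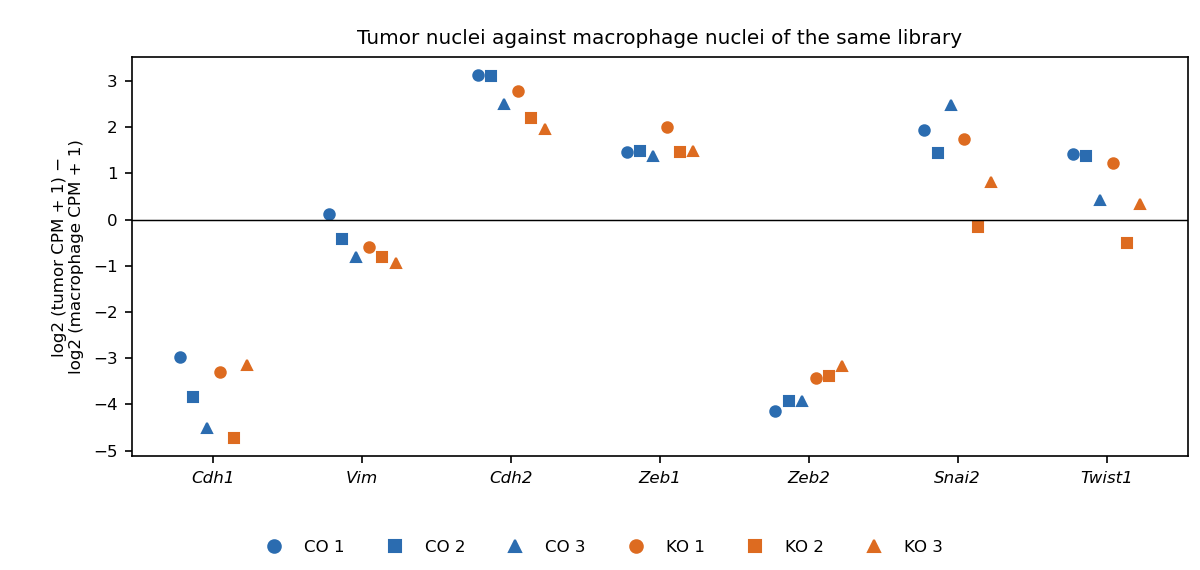
Difference in log2 (CPM + 1) between tumor-like and macrophage-like nuclei of the same library, 1 point per library, for the 7 members with at least 50 UMIs over both classes. Cdh2 and Zeb1 lie above 0 and Cdh1 and Zeb2 below 0 in 6 of 6 libraries, while Vim, Snai2 and Twist1 each have 1 library on the other side.

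Against host fibroblast-like nuclei, Zeb2 was lower and Vim slightly higher in the tumor-like nuclei of every library compared, and the other members had no common direction. Only CO 3, KO 2 and KO 3 held at least 10 such nuclei. Zeb2 was lower in tumor-like nuclei in 3 of 3, at 308, 460.3 and 498 CPM against 921, 952 and 1241 CPM, a log2 ratio of -1.31 ± 0.26. Vim was higher in 3 of 3, by a log2 ratio of 0.14 ± 0.11, a difference that was not kept when every nucleus was given equal weight. Zeb1 differed by -0.096 ± 0.36 and Twist1 by 0.12 ± 0.19, without a common direction. Cdh2 was 861 CPM in fibroblast-like nuclei of KO 2 and 93.6 and 119 CPM in those of CO 3 and KO 3. Among 11798 genes with at least 50 UMIs over these classes, 24.1% were higher and 14.7% lower in tumor-like nuclei of all 3 libraries. Fibroblast-like nuclei carried tumor marker transcripts at 61.1% ± 20.2 of the tumor level (mean ± SD, n = 6), and the part of such RNA in their member levels was not tested. Their own markers were present, with Col1a1 at 704 and Dcn at 318 CPM pooled, against 10.1 and 18.6 CPM in tumor-like nuclei. Pericyte markers were present in them too. Pdgfrb stood at 142, Notch3 at 86.3 and Abcc9 at 32.6 CPM pooled, against 39.7, 11.2 and 0.620 CPM in tumor-like nuclei. Rgs5, Myh11 and Cspg4 stood at 24.9, 24.9 and 7.67 CPM against 0.0979, 1.34 and 3.66 CPM. The share of pericytes among the fibroblast-like nuclei was not tested.

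Related genes of the same programs were read as counts. Of 30 further epithelial genes, 8 averaged at least 1 CPM in tumor-like and 10 in macrophage-like nuclei. Over all 22623 genes these counts were 12675 and 12771. In the macrophage contrast 2 of the 8 tested were higher and 2 lower in 6 of 6 libraries, beside 33.3% and 26.4% of all genes. The highest was Pkp3, a plakophilin of desmosomes, at 11.1 ± 4.11 CPM, followed by the junction protein gene Jup at 4.55 ± 0.680 CPM and the factor Grhl1 at 3.53 ± 1.61 CPM. The claudin genes Cldn3 and Cldn4 and the keratin gene Krt7, named after their values were seen, had 0 UMIs, which allows up to 0.0490 CPM. Of 16 lung epithelial genes, 5 averaged at least 1 CPM in tumor-like and 6 in macrophage-like nuclei. In tumor-like nuclei the lipid transporter gene Abca3 led at 37.4 ± 4.54 CPM, lower than in macrophage-like nuclei (62.8 ± 3.87 CPM) in 6 of 6 libraries. Hopx and Lamp3 followed at 10.8 ± 4.03 CPM and 2.04 ± 1.02 CPM. Of 24 further mesenchymal genes, 21 averaged at least 1 CPM in tumor-like nuclei, and 21 did so in macrophage-like nuclei as well. The mesenchymal homeobox gene Prrx1 led at 681 ± 162 CPM against 121 ± 68.0 CPM in macrophage-like nuclei, while the surface receptor gene Cd44 (338 ± 59.8 CPM against 337 ± 95.3 CPM) and Msn, which encodes moesin (303 ± 23.2 CPM against 356 ± 55.4 CPM), lay close to the macrophage level.

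Of the 21 mesenchymal genes with enough UMIs for the macrophage contrast, 8 were higher and 4 lower in tumor-like nuclei of all 6 libraries, beside 33.3% and 26.4% of all genes, with a median log2 ratio of 0.22 against 0.14 over all 13317 genes. In the fibroblast contrast 2 were higher and 11 lower of 20 in all 3 libraries, beside 24.1% and 14.7% of all genes, with a median of -0.95 against 0.23 over all 11798 genes. Those lower, named after their values were seen, included the matrix genes Fn1, Fbn1 and Sparc and the cadherin gene Cdh11, the last at 15.2 against 658 CPM. Of 10 E-box factors and corepressors with enough UMIs, 6 were higher and 1 lower than in macrophage-like nuclei in all 6 libraries, beside the same 33.3% and 26.4%. The higher genes included Tcf4 (1232 ± 391 CPM against 680.4 ± 202 CPM), Tcf12 (1161 ± 280.5 CPM against 488 ± 137 CPM) and Twist2 (147 ± 26.9 CPM against 25.2 ± 6.91 CPM), of which Tcf4 and Tcf12 encode partners of Twist proteins. Among the catenins, which link cadherins to actin, Ctnna1 was higher in 6 of 6 libraries (256 ± 34.2 CPM against 162 ± 38.3 CPM). Ctnnb1 (129 ± 17.9 CPM against 126 ± 18.9 CPM) and Ctnnd1 (13.3 ± 2.35 CPM against 15.5 ± 6.48 CPM) had no common direction. Of the other intermediate filament genes, the lamins Lmna (462 ± 110.4 CPM against 314 ± 44.2 CPM) and Lmnb1 (143 ± 10.6 CPM against 92.9 ± 11.9 CPM) were higher in 6 of 6 libraries and Nes, which encodes nestin, in 4 (40.3 ± 16.2 CPM against 31.1 ± 10.6 CPM). Krt5, Krt14 and Krt17 had 0 UMIs in tumor-like nuclei. Other keratinocyte markers were detected there. Krt10, a keratin of differentiated epidermis, had 820 UMIs and ranged over the 6 libraries from 5.56 to 21.4 CPM (median 13.6) against 0 to 9.44 CPM (median 6.67) in macrophage-like nuclei. Dsg3, a desmosomal cadherin gene, had 110 UMIs (1.89 ± 0.590 CPM against 0.851 ± 0.702 CPM) and Trp63 had 14.

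Detection per nucleus was compared after each nucleus was thinned to 1000 UMIs, because tumor-like nuclei were deeper (median 4771 UMIs) than macrophage-like (1066) and fibroblast-like nuclei (2216). Thinning kept 8315 tumor-like nuclei and left out 758, and kept 3432 macrophage-like nuclei and left out 2723. A Vim UMI was then found in 60.8% ± 20.7 of tumor-like nuclei (mean ± SD, n = 6), from 26.4% in KO 2 to 78.1% in CO 1, and in 71.1% ± 19.2 of macrophage-like nuclei. Zeb1 was found in 46.8% ± 6.74 and 20.04% ± 5.66, and Zeb2 in 28.3% ± 6.71 and 93.8% ± 1.89, in that order. Cdh2 was found in 14.0% ± 3.49 of tumor-like nuclei, Twist1 in 6.35% ± 2.23 and Snai2 in 1.01% ± 0.458. Without thinning these shares were 93.8% for Vim, 80.1% for Zeb1, 67.8% for Zeb2 and 47.0% for Cdh2.

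**Figure D3:**
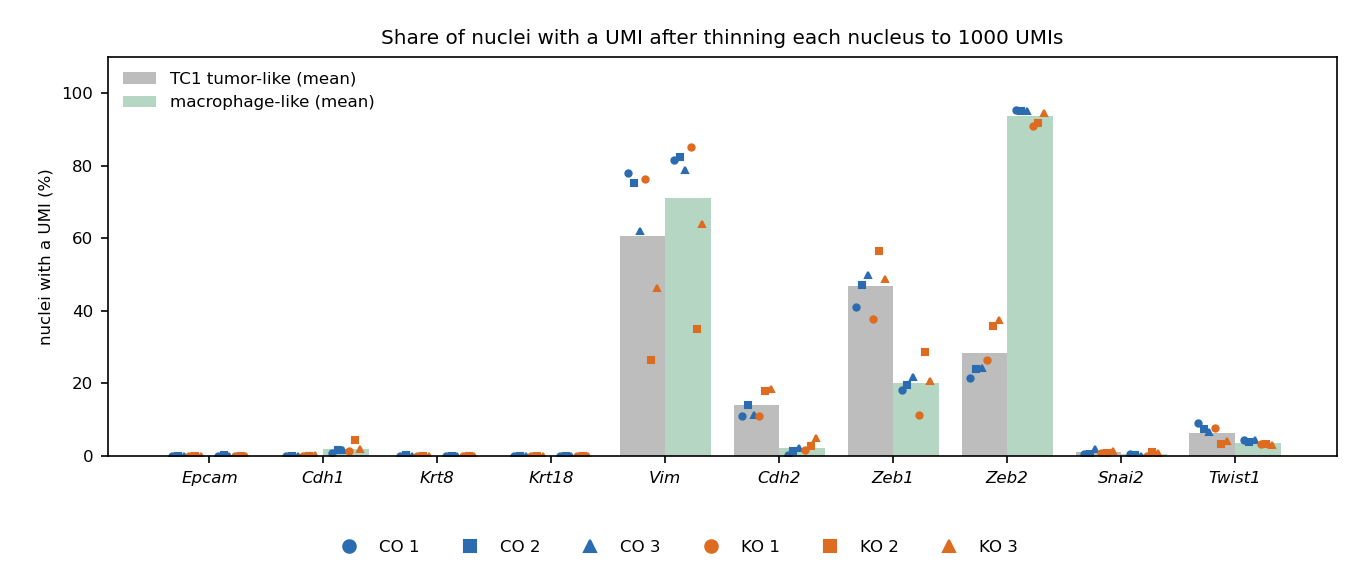
Percent of nuclei with at least 1 UMI of each gene after thinning every nucleus to 1000 UMIs, as the mean over 6 libraries (bars) and each library (points, CO blue, KO orange), in tumor-like (grey) and macrophage-like nuclei (green). Zeb1 and Cdh2 are found in more tumor-like nuclei and Zeb2 in more macrophage-like nuclei, and the 4 epithelial genes stay under 5% in every library.

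Nuclei with a UMI of an epithelial gene were rare after thinning. Cdh1 was found in 4, Krt8 in 2, Epcam in 1 and Krt18 in 0 of 8315 tumor-like nuclei, and the last allows a share of up to 0.0361%. Cdh1 was found in 1.94% ± 1.22 of macrophage-like nuclei. The 7 tumor-like nuclei with an epithelial UMI all held a mesenchymal UMI too, as did 91.5% of CO and 87.4% of KO tumor-like nuclei (means of 3 libraries). Nuclei with both kinds made up 0.0475% ± 0.0822 in CO and 0.112% ± 0.0319 in KO (SD, n = 3). An exact two-sided permutation test over libraries gave p = 0.4, where 0.1 is the smallest p that 3 against 3 libraries allow, so a difference could not have passed 0.05. At full depth the same count gave 0.481% ± 0.309 of nuclei in CO and 0.480% ± 0.0449 in KO. KO minus CO was then -0.00164 percentage points (exact permutation p = 1.00, two-sided), so the sign did not hold without thinning.

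The mesenchymal genes varied between the 7 tumor-like clusters, which are described here by their leading genes. Vim was highest in the 532 nuclei led by Msln, Crabp1 and Igfbp6, at 3000.4 ± 1539 CPM against 1029 ± 497 CPM in the other tumor-like nuclei, higher in 6 of 6 libraries. Twist1 was higher there too (113 ± 33.9 CPM against 65.8 ± 26.5 CPM, 6 of 6), while Zeb1 (522 ± 204 CPM against 779.8 ± 160.4 CPM) and Zeb2 (258 ± 105 CPM against 361 ± 97.4 CPM) were lower in 6 of 6. Of all 12927 genes with at least 50 UMIs, 13.8% were higher and 20.2% lower in this cluster in every library. The cluster held 2.43% of its UMIs in ribosomal protein genes, against 0.829 to 1.92% in the other 6 clusters, and the part of this in the Vim level was not tested. Since the clusters were drawn from the same nuclei, these values have no test. In the genome Vim and Twist1 span 8.9 and 2.16 kb, and Zeb1, Zeb2 and Cdh2 span 184, 134 and 220 kb. The part of gene length in the differences of this cluster was not tested.

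In the 323 nuclei led by the stress response genes Atf3, Ppp1r15a and Ier2, the factor and the cadherin moved apart from vimentin. Zeb1 was 265 ± 54.9 CPM against 773 ± 165 CPM and Cdh2 47.8 ± 28.5 CPM against 169 ± 36.3 CPM, both lower in 6 of 6 libraries. Vim (1809.9 ± 824 CPM against 1176 ± 639 CPM) and Twist1 (119.9 ± 55.2 CPM against 68.1 ± 28.6 CPM) were higher in 6 of 6. Among all genes 13.1% were higher and 17.3% lower in this cluster in every library. Zeb2 averaged 354.2 ± 161 CPM against 354.5 ± 100 CPM, lower in 5 of 6, and Snai2 23.9 ± 26.8 CPM against 9.77 ± 1.10 CPM, higher in 4 of 6. Zeb1, Cdh2 and Zeb2 are long genes and Vim, Twist1 and Snai2 short ones. The part of gene length in this split was not tested. The 1886 nuclei led by Pde10a, Gpm6b and Frmd5 had less Vim (922 ± 444 CPM against 1245 ± 681 CPM, lower in 6 of 6, where 15.2% of genes were). In the deep nuclei led by Lingo2 and Il34 (median 12323 UMIs) Vim was 852 ± 422 CPM and Cdh2 182 ± 36.2 CPM. Zeb1 was 578 ± 138 CPM in the shallower nuclei led by Gm26992, Plcd3 and Etv4 and 855 ± 182 CPM in the interferon response nuclei led by Rsad2 and Ifit1, and Zeb2 was 452 ± 277 CPM and 345 ± 64.9 CPM in that order. No tumor-like cluster had more than 11 UMIs of any epithelial member.

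**Figure D4:**
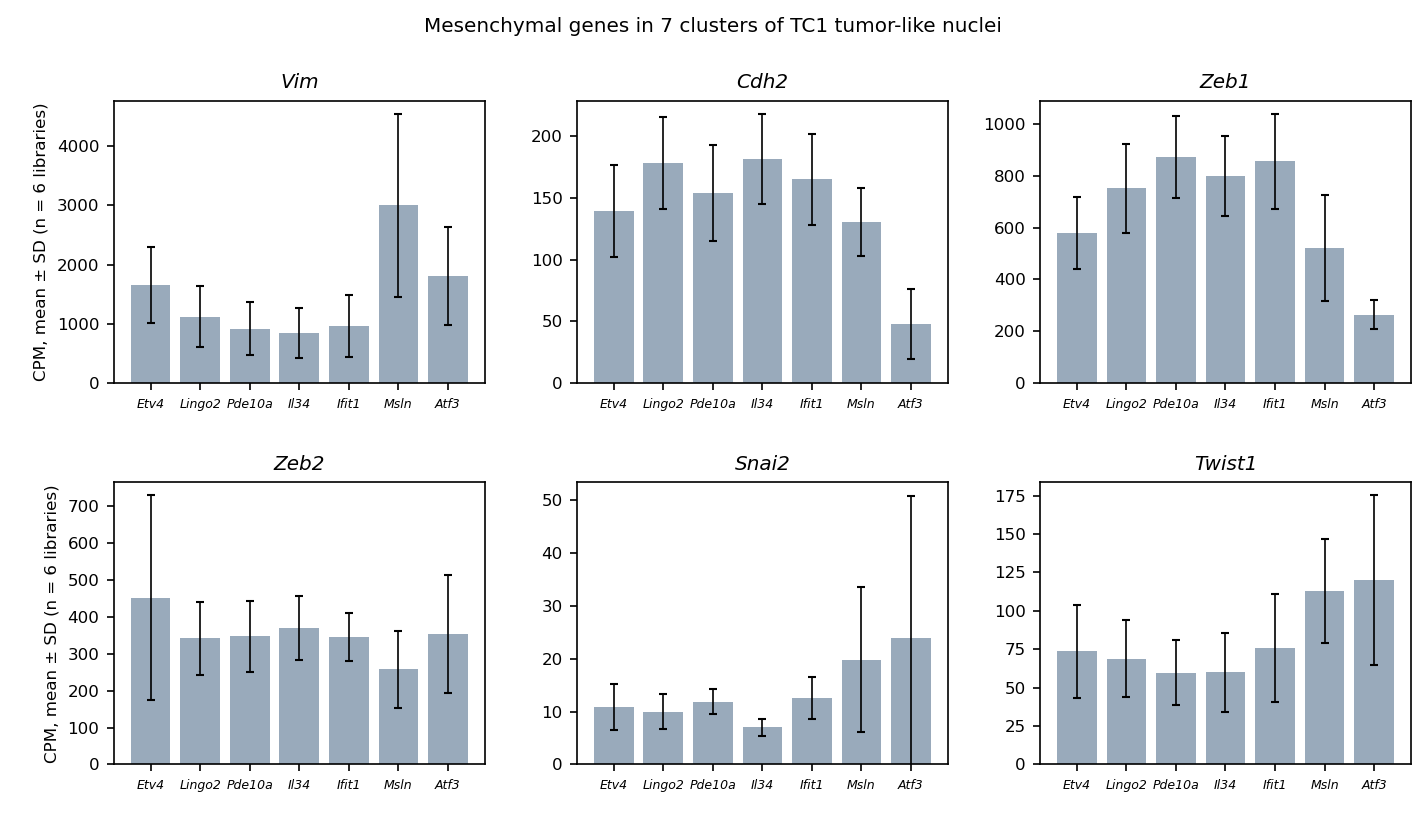
Mean CPM of the 6 mesenchymal genes in each of 7 tumor-like clusters, named by 1 leading gene (bars, mean over 6 libraries, error bars SD). Vim is highest in the Msln-led cluster, and Zeb1 and Cdh2 are lowest in the Atf3-led cluster.

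The genes most like each member in level across all 20 clusters were found by Pearson correlation of log2(CPM + 10) among 10680 genes with at least 500 UMIs. The points share libraries and depth, so the values are descriptions. Cdh2 was closest to Nova1 (r = 0.960) and Gpc6 (r = 0.956), and Vim to Npm1 (r = 0.989) and Rpl14 (r = 0.988), which encode a nucleolar and a ribosomal protein. Zeb1 was closest to Sh3rf3 (r = 0.911) and Glis3 (r = 0.907). Zeb2 was closest to Slc16a7 (r = 0.964), the MCT2 gene, and Pid1 (r = 0.962). Snai2 was closest to Slc1a4 (r = 0.879) and Nup35 (r = 0.879) and Twist1 to Il11 (r = 0.917) and Psmc3ip (r = 0.908). Among the members themselves r was 0.79 for Zeb1 with Cdh2, 0.73 for Twist1 with Vim and -0.54 for Zeb2 with Zeb1. Zeb1 and Cdh2 are both long genes and Twist1 and Vim both short, but Zeb2 and Zeb1 are both long as well. The part of gene length in these values was not tested.

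Whether deletion of MCT2 in the host went with another identity of the tumor was tested on counts summed per library with edgeR's quasi-likelihood test, calling genes at a log2 fold change of at least 0.58 and a Benjamini-Hochberg adjusted p of at most 0.05 over all genes. In tumor-like nuclei 6 of the 10 members passed the filter on low counts and 0 were called, beside 0 of 12833 genes (0%), with 881 genes at an unadjusted p under 0.05 and 22 genes (0.124%) called by DESeq2, none of them a member. Zeb2 had the clearest separation. In TMM-normalised CPM it stood at 237, 299.7 and 299 in CO 1 to CO 3 and at 309, 499 and 499 in KO 1 to KO 3, a log2 fold change of 0.64 ± 0.24 (SE) with an edgeR adjusted p of 0.575. It was the only member whose groups did not overlap, against 12.8% of all genes tested (7.11% with KO higher and 5.67% with KO lower). Vim overlapped between groups, at -0.89 ± 0.55 (SE) with an edgeR adjusted p of 0.575, and so did Twist1 at -0.69 ± 0.37 (SE). Cdh2 differed by 0.36 ± 0.25 (SE), Zeb1 by 0.25 ± 0.29 (SE) and Snai2 by 0.039 ± 0.20 (SE).

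The result depended on 1 library. Without KO 1, edgeR called 2394 of 12930 genes (18.5%) in tumor-like nuclei, and 4 of the 6 members tested were among them. Vim was then lower in the KO libraries, at -1.63 ± 0.41 (SE) on the log2 scale with an edgeR adjusted p of 0.0400. Twist1 was lower too, at -1.16 ± 0.28 (SE) with an edgeR adjusted p of 0.0378. Zeb2 was higher, at 0.84 ± 0.17 (SE) with an edgeR adjusted p of 0.0308, as was Cdh2, at 0.58 ± 0.15 (SE) with an edgeR adjusted p of 0.0414. KO 1 lay nearer CO 1 and CO 2 in Vim, Cdh2 and ribosomal protein share, whereas KO 2 and KO 3 stood lower in Vim and Twist1 and higher in Zeb1 and Cdh2. In other measures CO 3 lay with KO 2 and KO 3. The mitochondrial share of tumor-like UMIs was 9.99, 9.23 and 6.12% in CO 1 to CO 3 and 9.83, 5.73 and 5.78% in KO 1 to KO 3. Host fibroblast-like nuclei numbered 6, 9 and 25 in CO 1 to CO 3 and 8, 34 and 35 in KO 1 to KO 3. The part of this split, which crosses the groups, in the calls without KO 1 was not tested. Nor was that of gene length, although the lower genes, Vim and Twist1, are short and the higher ones, Zeb2 and Cdh2, long. Over the 15 alternatives run with edgeR, the edgeR adjusted p of Vim ranged from 0.0400 to 0.987 and of Twist1 from 0.0378 to 0.987. The edgeR adjusted p of Zeb2 ranged from 0.0308 to 0.987 and of Cdh2 from 0.0414 to 0.987. Leaving out any of the other 5 libraries called 0 genes.

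Macrophage-like nuclei gave 0 called genes of 10033 (0%) by edgeR, with 544 at an unadjusted p under 0.05 and 5 (0.0317%) called by DESeq2. Vim differed by -0.52 ± 0.43 (SE) and Cdh2 by 0.98 ± 0.46 (SE), with edgeR adjusted p of 0.789 and 0.776. Zeb2 (-0.074 ± 0.27 (SE)), Zeb1 (0.052 ± 0.35 (SE)), Twist1 (-0.096 ± 0.24 (SE)) and Cdh1 (0.082 ± 0.53 (SE)) lay within 1 SE of 0. No member separated the groups there, where 11.7% of genes did (5.82% with KO higher and 5.85% with KO lower). Tumor markers in macrophage-like nuclei reached 14.2 and 15.4% of their tumor level in KO 2 and KO 3 and 4.14 to 8.28% in the other libraries, and these were also the libraries with the highest Cdh2 there, and the part of free tumor RNA in the Cdh2 difference was not tested. Without KO 1, 1903 of 10102 genes (18.8%) were called. Vim (-1.07 ± 0.28 (SE)) and Cdh2 (1.40 ± 0.29 (SE)) were among them, with edgeR adjusted p of 0.0192 and 0.00753. The part of gene length in these calls was not tested. Over all nuclei 0 of 13666 genes (0%) were called by edgeR, with 669 at an unadjusted p under 0.05, and 9 (0.0497%) by DESeq2. None of the 7 members tested there was called, and none separated the groups, where 5.8% of genes did with KO higher and 5.17% with KO lower. In such sums fewer nuclei of a type and less RNA per nucleus cannot be told apart.

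**Figure D5:**
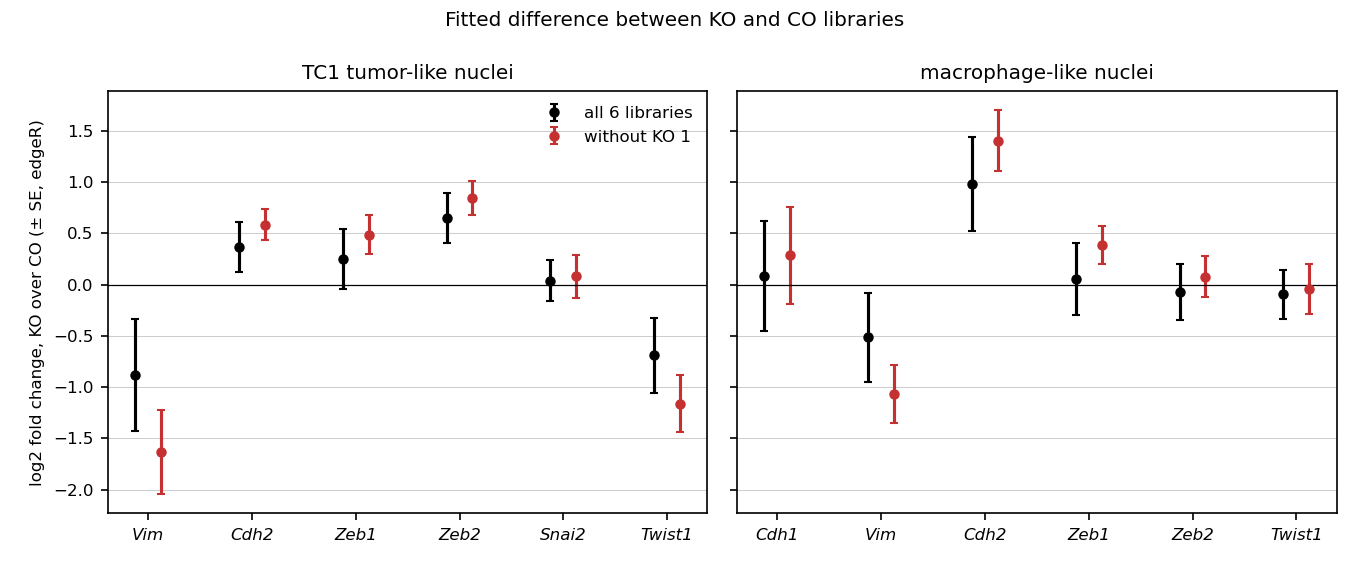
Log2 fold change of KO over CO (points, error bars SE, edgeR) for the members that passed the low-count filter, in tumor-like nuclei (left) and macrophage-like nuclei (right), with all 6 libraries (black) and without KO 1 (red). With all libraries no member was called, and without KO 1 Vim lies lower and Cdh2 higher in both classes.

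The related lists gave no calls either. With all 6 libraries 0 of the 8 epithelial, 5 lung epithelial, 21 mesenchymal, 10 E-box factor, 4 catenin and 5 other filament genes tested in tumor-like nuclei were called. The 21 mesenchymal genes had a median log2 fold change of 0.024 and the 10 E-box factors and corepressors one of -0.29, against -0.021 over all 12833 genes. In macrophage-like nuclei and over all nuclei 0 genes of these lists were called as well. Prrx2, a mesenchymal homeobox gene named here after its value was seen, had the smallest unadjusted p of the listed genes in tumor-like nuclei. It stood at 68.2, 81.4 and 106 TMM-normalised CPM in CO 1 to CO 3 and at 50.6, 40.7 and 42.2 in KO 1 to KO 3. Its groups did not overlap, the log2 fold change was -0.94 with an SE of 0.20, and the edgeR adjusted p was 0.575.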

How the data were processed

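Nuclei of frozen tumors were captured with droplet 3′ chemistry, and the authors deposited unnormalised UMI counts for every gene in every barcode, made with Cell Ranger (3.0.2 per the labels, 3.1.0 per the file headers) on GRCm38. Some samples received extra washes, and which ones is not given in the sources used here. Nuclei with 100 to 7500 genes and under 20% mitochondrial counts were kept. The threshold of Scrublet (scanpy 1.11.5) marked 11 nuclei, so the 480 highest scores (0.8% per 1000 nuclei of a library) were removed. The 2000 most variable genes without the members and listed genes gave 30 components, integrated over libraries and clustered by Leiden at resolution 1. A cluster took the class with the highest mean relative marker level among classes with at least 3 detected markers, a rule set after the clusters were seen. Libraries were compared with edgeR 4.0.16 (TMM, filterByExpr, R 4.3.3), tested on simulated data, and with DESeq2 1.42.0 as an alternative. Named genes were all members, the 3 highest of each list and any called gene. Members and lists were chosen with earlier results of these data known. Within groups the chi-square statistic per degree of freedom between libraries was 8.95 to 202, so no library copied another. 1 promoter and 1 listed gene are not reported here. Counting intervals cover counting error only.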

Additional observations from a re-analysis of the deposited data

How the results depend on the processing

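The count of called genes between KO and CO was 0 for each class with edgeR and stayed 0 with RLE size factors, without the low-count filter, with stricter nucleus filters, with doublets kept and after thinning, and for the classes also without integration or at resolution 0.5 and for the tumor with a gate on Hmga2, Mecom and Slit2. DESeq2 called 22 genes in tumor-like nuclei, 5 in macrophage-like nuclei and 9 over all nuclei. Leaving out 1 library gave 0 to 2394 called genes in tumor-like nuclei, 0 to 1903 in macrophage-like nuclei and 0 to 0 over all nuclei, and every call came without KO 1. Whether the replicate numbers pair the libraries could not be decided from 3 libraries per group. The deviations of CO 1 and KO 1 correlated at 0.63, 0.34 and 0.58 in the 3 sums (tumor-like, macrophage-like and all nuclei). Those of CO 3 and KO 3 correlated at 0.34, 0.36 and 0.42, and those of CO 2 and KO 2 at -0.35, -0.42 and -0.36. Not every library correlated best with its own number. With the number as a replicate block 0 genes were called in each sum, with 1667, 616 and 1054 at an unadjusted p under 0.05 against 881, 544 and 669 without it.

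Some fitted differences of members that were not called changed sign, and the cause was not tested. In tumor-like nuclei Snai2 was -0.12 under the gate and -0.057 to 0.099 leaving out 1 library. In macrophage-like nuclei Zeb1 was -0.056 with the replicate block, -0.037 with stricter filters, -0.052 thinned and -0.24 to 0.38 leaving out 1 library. Twist1 there was 0.000795 with stricter filters, 0.27 without integration and -0.16 to 0.026 leaving out 1 library, while Cdh1 and Zeb2 ranged over -0.45 to 0.50 and -0.19 to 0.078. Over all nuclei Zeb2 was -0.30 with stricter filters and -0.10 to 0.39, and Zeb1 -0.068 to 0.50, leaving out 1 library.

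The number of members higher in tumor-like than in macrophage-like nuclei in every library was 2 under each alternative clustering or filter and 2 to 4 leaving out 1 library, the highest being without KO 2, where Snai2 and Twist1 joined. Against fibroblast-like nuclei 1 member, Vim, was higher in all 3 libraries, and 0 were with stricter filters, with doublets kept, or with equal weight per nucleus, the last chosen after seeing the data. The number of members with a higher mean share of tumor-like than of macrophage-like nuclei after thinning was 5 and moved by no more than 1.5 times. The members were Cdh2, Zeb1, Snai2, Twist1 and Krt8. Krt8 was counted on 2 of 8315 tumor-like against 0 of 3432 macrophage-like nuclei, where 0 allows up to 0.0874%. No such count over all genes is given. The difference in nuclei with both kinds of UMI kept its sign in 11 of 12 alternatives and turned from 0.0648 to -0.00164 percentage points (KO minus CO) without thinning, an alternative chosen after seeing the data, and the cause was not tested. In none of these could the test pass 0.05. Depth limited the keratins, Epcam and Snai2 in macrophage-like nuclei.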

Other observations

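Clusters that were given no class held the highest pooled levels of Vim, Twist1 and Cdh1 among the 20 clusters. In 492 shallow nuclei (median 647 UMIs) led by Hsp90aa1, Tceal9 and Tuba1b, Vim reached 5939 CPM pooled and Twist1 160.0 CPM, with Zeb1 at 200.0 CPM and 4.24% of UMIs in ribosomal protein genes. In 56 nuclei led by Grm8, Siglech and Bcl11a, Cdh1 reached 139.8 CPM on 14 UMIs and Zeb2 1328 CPM. Among the macrophage-like clusters, the 977 nuclei led by Ccr2 and Gpr141 held 68 Cdh1 UMIs (66.6 CPM), against 11.1 CPM in the 3132 nuclei led by Mrc1 and Stab1, and 5 of the 7 macrophage-like Epcam UMIs. Vim also differed between these clusters, at 2239 CPM in the Ccr2-led, 2609 CPM in the Negr1-led and 1430.0 CPM in the Mrc1-led nuclei. These are pooled levels with no test, and the part of gene length in them was not tested.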
